A study of Mus musculus with 24 samples.

Results

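Autophagy is the pathway by which a cell encloses part of its cytoplasm in a double membrane, the autophagosome, and delivers it to lysosomes for breakdown. A kinase complex around ULK1 starts the process, a lipid kinase complex around Beclin 1 marks the membrane, 2 ubiquitin-like conjugation systems attach ATG8 proteins to it, and cargo receptors bind ATG8 proteins and their load. In hematopoietic stem cells (HSCs), autophagy is known for clearing mitochondria and for maintaining cells of old animals, and FoxO transcription factors are known to keep autophagy genes ready for use. The values described here are the transcripts of these genes in HSC-enriched cells of young and old mice.

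The genes were a list of 44, taken by symbol: the core machinery of each step, cargo receptors, 2 proteins of the lysosome membrane and 3 transcription factors. Of these, 39 had a row among the 18762 genes of the table, and 38 reached the mean of 10 normalized reads over all mice that was required for testing. *Atg101*, *Atg14*, *Atg2b*, *Atg10* and *Calcoco1* were not analysed here, and *Map1lc3a* had a row but did not reach the mean. The rule used gene symbols and no measured value, but the list was chosen with earlier results of these data known.

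LSK-SLAM cells, defined by c-Kit and Sca-1 without lineage markers and by CD150 without CD48, were sorted from the bone marrow of Wt C57BL/6 mice, 5 young animals of 4 to 5 months and 7 old animals of 20 to 22 months according to the labels, with no other treatment named. The text of the study gives higher ages for both groups, and the ages of the labels are used here. Total RNA of 15000 cells per mouse was depleted of ribosomal RNA before sequencing, and the 24 labelled samples, 2 per mouse, were deposited as 1 column per mouse. A value is a normalized read count, that is reads on a gene scaled to the library. Because a bulk sample was measured, fewer cells that express a gene and less RNA per cell cannot be told apart.

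Each library held between 861047 (0.861 M) and 5118507 (5.12 M) recovered reads on genes, with old 7 (0.861 M) and old 5 (1.13 M) the shallowest. Each mouse label ends in the letter A or B, whose meaning was not given in the sources used here, and depth was 0.861 to 3.11 M in A (2 young, 4 old) and 3.23 to 5.12 M in B (3 young, 3 old), so that letter and depth cannot be told apart. All 12 stem cell markers were detected in the libraries, and their summed normalized read counts were 3677 to 6478 in young and 2046 to 7146 in old mice, with old 5 (2046) and old 7 (3043) lowest. Of 10 listed markers of granulocytes and monocytes, 9 had a row. They summed to 151 to 414 in young and 163 to 2046 in old mice, with old 6 (2046), old 5 (856) and old 7 (494) highest. *S100a9* was the largest part of the sum in old 5 (344) and old 7 (189). *Prtn3* went the other way in these 2 mice (41.0 and 43.0). It was 84.5 to 109 in the other old mice and 37.0 to 75.7 in young mice. No marker of the lists was at 0 in every mouse. Old 5 was also the highest of the 12 mice in summed markers of B cells (174, with 63.4 to 162 in the others) and of T and NK cells (178, with 32.1 to 124), and the second highest in erythroid markers (403, after 741 in old 6). The progenitor genes *Cd34*, *Flt3* and *Cd48* (3 of 3) summed to 167 to 293 in young and 98.0 to 139 in old mice. The sums did not overlap (two-sided exact permutation test on log2 sums, p = 0.00126, the smallest that the splits into 5 and 7 mice allow). Each gene alone did overlap, with *Cd34* at 104 in old 3 and 99.5 in young 2, and *Flt3* at 46.6 in old 5 and 42.6 in young 3. *Cd48* was low and highest in old 5 (11.8) and old 6 (11.3), above all young mice. Megakaryocyte markers (5 of 6 listed had a row) summed to 353 to 584 in young and 387 to 902 in old mice. The two-sided exact permutation test on log2 sums gave p = 0.0606. *Vwf*, the largest part, was 183 to 341 in young and 251 to 710 in old mice. *Pf4* leaned the other way, at 13.5 to 79.0 in young and 3.59 to 21.2 in old mice. The part of these markers in the values of the autophagy genes was not tested.

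Promoters are shown because TFEB, the master regulator of lysosome and autophagy genes, binds the CLEAR element, whose core TCACGTGA contains the E-box CACGTG. RefSeq promoters (250 bases before to 50 after the start, GRCm38.p6) were found for 32 of the 39 genes. The core, the same on both strands, was present in 1 of 32, *Atg3*, compared with 1.12% of all genes with a promoter. E-boxes, which include every match of the core, were found in 4 of 32 (12.5%; *Atg3*, *Atg5*, *Atg7* and *Lamp1*), compared with 8.09% of all genes. The FoxO element GTAAACA was searched on both strands and found in 0 of 32 of these windows, and in 4.05% of all genes. Below, capitals mark each E-box, and the sequences lie on the plus strand before the RefSeq start, at chr16:45158715-45158783 for *Atg3*, chr10:44268305-44268338 for *Atg5* and chr8:13159080-13159160 for *Lamp1*.
Atg3: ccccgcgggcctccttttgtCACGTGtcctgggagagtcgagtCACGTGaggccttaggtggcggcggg
Atg5: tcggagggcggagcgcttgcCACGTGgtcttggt
Lamp1: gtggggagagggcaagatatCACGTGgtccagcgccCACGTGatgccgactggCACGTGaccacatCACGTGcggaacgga
*Lamp1* thus held 4 E-boxes within 81 bases, while the single E-box of *Atg5* began 14 bases before the RefSeq start, which lies upstream of the GENCODE start given for this gene below. These matches describe letters only, and binding was not measured.

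Per kilobase of exon, the scale on which levels of different genes can be compared, the 39 genes spanned from 4.43 normalized reads per kb for *Atg4a* to 96.2 for *Gabarap*, as means over 12 mice. The 5 highest were *Gabarap* (96.2 reads per kb) and *Gabarapl1* (66.5), which encode ATG8 proteins, *Lamp1* (65.6), a main glycoprotein of the lysosome membrane, *Foxo3* (45.6), a FoxO factor required for HSC maintenance, and *Sqstm1* (41.3), which encodes the cargo receptor p62. These levels were above those of 98.6%, 97.5%, 97.4%, 95.4% and 94.5% of all genes tested. *Lamp2* (39.0 reads per kb) and *Map1lc3b* (29.9), the gene of the autophagosome marker LC3B, followed at ranks 6 and 7. *Tfeb* was among the lowest (4.82 reads per kb, rank 37 of 39), about as low as *Atg16l1* (4.88).

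Comparing old with young mice, no autophagy gene changed at an adjusted p under 0.05 (limma, Benjamini-Hochberg over 12354 genes). Of all genes tested, 13 (0.105%) were called, 12 higher and 1 lower in old mice. Of the 38 autophagy genes, 20 had a log2 fold change above 0 and 18 below. Their median was 0.01 and the median of all genes -0.02. The middle of the distribution was narrow, with quartiles of -0.14 and 0.11 for the autophagy genes and -0.20 and 0.20 for all genes. For 34 of 38 (89.5%) the 95% interval of the log2 fold change lay within -1 and 1, that is within a doubling in either direction, compared with 58.3% of all genes. The half-width of the intervals of the autophagy genes was 0.34 at the least, 0.46 at the median and 1.12 at the most. Their median SE was 0.22, and that of all genes 0.29. Genes of matched level were not compared, so these shares and quartiles do not set the list apart from genes of like level. Count tests on the recovered reads called 0 autophagy genes as well, while they called 18 (0.146%, edgeR quasi-likelihood), 41 (0.332%, edgeR likelihood-ratio) and 58 (0.469%, DESeq2) of all genes. In 57 genes (0.461%) young and old values did not overlap, and none of them was an autophagy gene.

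**Figure D1:**
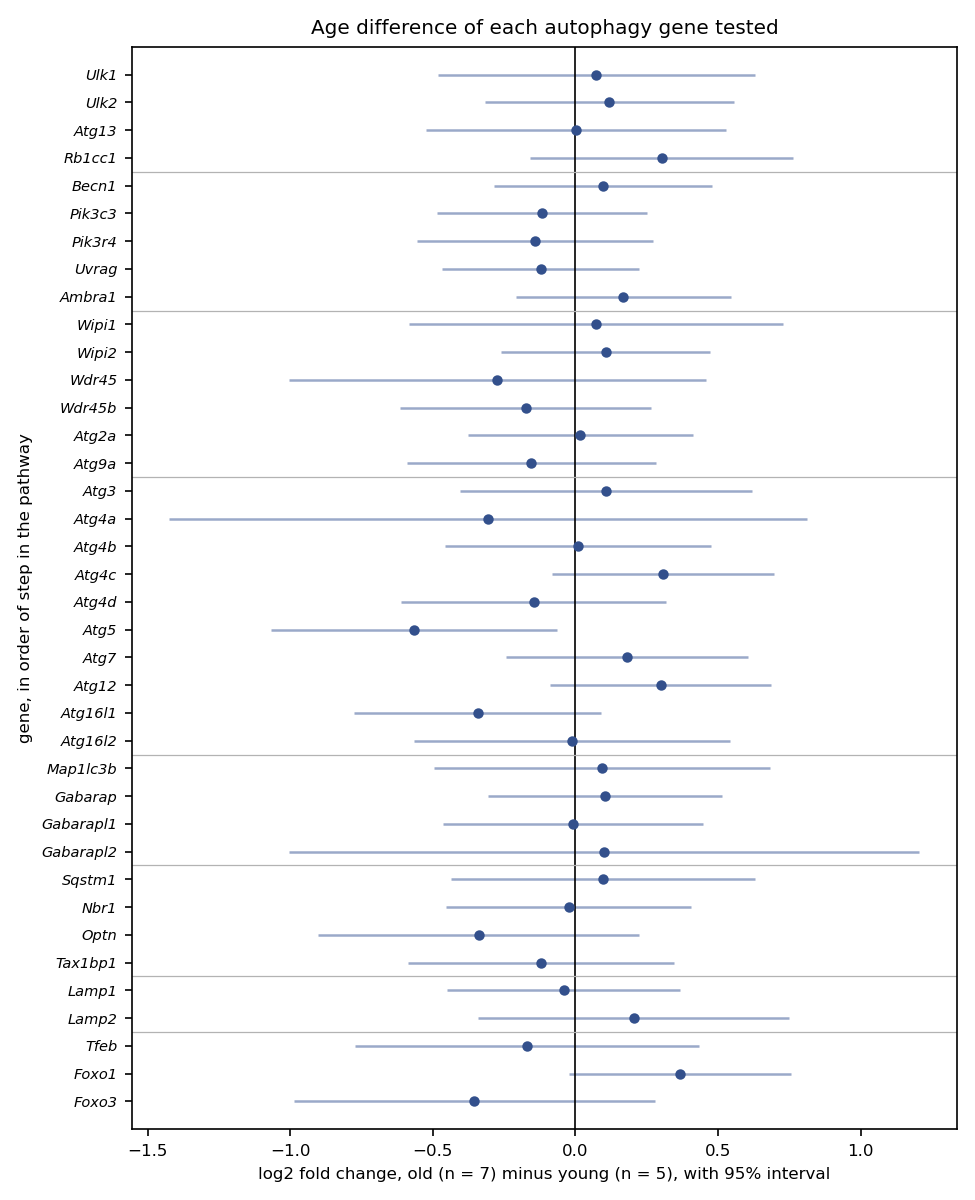
Log2 fold change of normalized read counts (old minus young, x axis) for each of the 38 autophagy genes tested (y axis, ordered by step, grey lines between steps); points are limma estimates and bars 95% intervals. The interval of *Atg5* alone (-1.07 to -0.06) does not include 0, and those of *Atg4a* and *Gabarapl2* are the widest.

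Without adjustment, 1 of 38 genes had p under 0.05, and it was lower in old mice, compared with 1.99% of all genes lower and 1.96% higher. The exact permutation test was also run for each of the 39 genes. It gave an unadjusted p under 0.05 for 3 of 39 (*Atg5*, lower, *Atg4c* and *Foxo1*, higher), where 2.42% of all genes were lower and 2.18% higher at that level.

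*Atg5* was the gene with the lowest log2 fold change. It encodes the protein that is joined to ATG12 and then directs attachment of ATG8 proteins to lipid, and it lies at chr10:44268358-44364291 on the plus strand (GRCm38). Young mice 1 to 5 had 59.7, 46.6, 57.5, 39.0 and 49.4 normalized reads. Old mice ranged from 17.4 (old 5) through a median of 34.3 to 44.9 (old 6). Of the old mice, 4 of 7 lay below the lowest young mouse, and the remaining old values overlapped with the young. The means were 50.5 ± 8.39 (SD, n = 5) and 34.7 ± 9.42 (SD, n = 7), with between 22 and 293 recovered reads on the gene per mouse. The log2 fold change was -0.57 ± 0.24 (SE; limma, unadjusted p = 0.0292, adjusted p = 0.9997) and the exact permutation test gave p = 0.0177. Without young 1 (p = 0.0747) or young 3 (p = 0.0682), and without both shallow mice, old 5 and old 7 (-0.38, p = 0.0752), the limma p was above 0.05. Within a letter the log2 fold change was -0.71 in A (p = 0.102) and -0.43 in B (p = 0.139). The 50-base words of *Atg5* transcripts were shared with no other gene.

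*Foxo1* encodes a transcription factor that is held in the cytoplasm by AKT signalling and activates autophagy and stress genes when released. Its values were 100.2, 72.6, 94.2, 98.5 and 93.4 in young mice 1 to 5. In old mice they ranged from 82.4 (old 7) through 126 to 154 (old 3). Of the old mice, 5 of 7 exceeded every young mouse, while old 5 and old 7 lay within the young range. The log2 fold change was 0.37 ± 0.18 (SE; limma, unadjusted p = 0.0629, adjusted p = 0.9997; exact permutation p = 0.0480). When the letter entered the fit as a covariate it was 0.42 (limma, unadjusted p = 0.0271, adjusted p = 0.838). Without old 5 and old 7, an alternative chosen after seeing the data, it was 0.54 (limma, unadjusted p = 0.00216, adjusted p = 0.232). Without young 2, the lowest young mouse, it was 0.29 and the limma p was above 0.05. Of 29 fits, the main one and 28 alternatives, 10 gave *Foxo1* an unadjusted p under 0.05. Annotated genes on both strands overlap *Foxo1* (chr3:52268336-52353221, plus strand), and 6.80% of its 50-base words were shared.

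*Foxo3* and *Tfeb* were the other transcription factors. *Foxo3* had 345, 283, 455, 439 and 377 normalized reads in young mice 1 to 5. In old mice it ranged from 129 (old 5) through 358 to 482 (old 3), and only old 5 and old 7 (166) lay below the young range. Its log2 fold change of -0.35 ± 0.30 (SE, limma, unadjusted p = 0.254) became 0.04 without these mice, left out after seeing the data, and was -0.50 within letter A and 0.01 within letter B. *Tfeb* had 30.2, 37.0, 16.5, 23.9 and 39.4 in young mice, and in old mice 17.96 to 39.4 with a median of 23.1. No old mouse was outside the young range of *Tfeb*, and its log2 fold change was -0.17 ± 0.29 (SE).

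**Figure D2:**
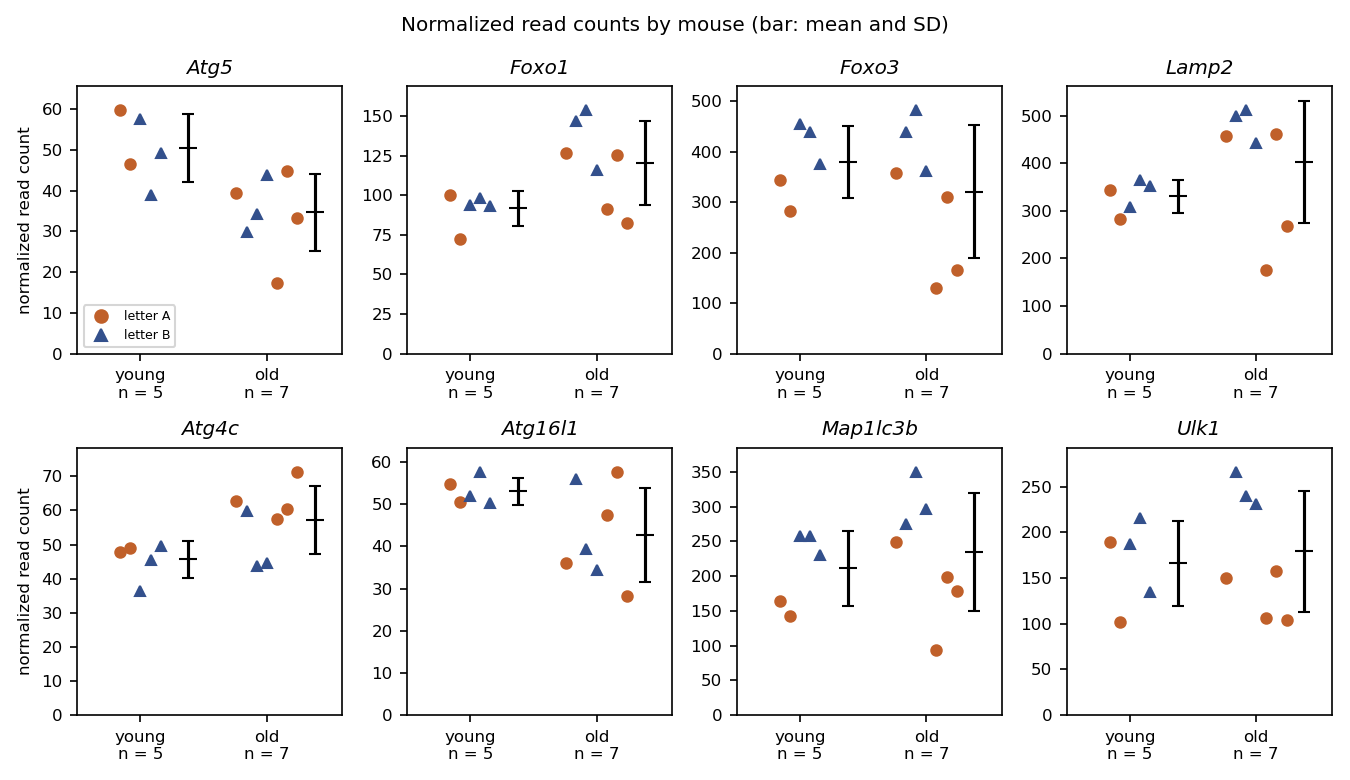
Normalized read counts (y axes, starting at 0) of 8 autophagy genes in each young (n = 5) and old (n = 7) mouse; circles are mice with letter A, triangles mice with letter B, and the bar beside each group is its mean and SD. For *Foxo1* and *Lamp2*, 5 of 7 old mice lie above all young mice, and for *Foxo3* the lowest values are old 5 (129) and old 7 (166).

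In the ULK complex, which starts autophagosome formation, all 4 genes with a row had a log2 fold change above 0, with a median of 0.10, and none passed the test. *Ulk1*, the kinase that AMPK activates and mTORC1 inhibits, had 189, 102, 187, 216 and 135 normalized reads in young mice. In old mice it ranged from 105 (old 7) through 158 to 266 (old 2), and its log2 fold change was 0.07 ± 0.26 (SE). *Rb1cc1*, which encodes the scaffold FIP200, needed for maintenance of fetal HSCs, had 184, 130.3, 264, 194 and 179 in young mice. Old values ranged from 135 (old 5) through 240.0 to 329 (old 2), with a log2 fold change of 0.30 ± 0.22 (SE, limma, unadjusted p = 0.185). Values of the ages overlapped for both genes.

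In the class III PI3-kinase complexes, which make the lipid PI3P at the forming membrane, 2 of 5 genes were above 0 and 3 below, with a median of -0.12. *Becn1*, the gene of the regulatory subunit Beclin 1, averaged 75.8 ± 14.9 (SD) in 5 young and 80.6 ± 12.7 (SD) in 7 old mice. *Becn1* overlaps *Cntd1* on the opposite strand. It shared 36.8% of its 50-base words with other genes, and *Cntd1* had the most matches. *Pik3c3*, the lipid kinase itself, had means of 84.6 ± 8.86 and 78.8 ± 14.99. Both log2 fold changes, 0.10 ± 0.18 and -0.12 ± 0.18 (SE), were within their error.

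Among PI3P effectors and proteins that supply lipid, 3 of 6 genes were above and 3 below 0 (median -0.07). *Wipi2* binds PI3P and recruits the ATG16L1 complex, and it had means of 108 ± 19.4 (SD, n = 5) and 115 ± 17.9 (SD, n = 7). *Atg9a*, the gene of a lipid scramblase in vesicles that seed the membrane, had means of 36.0 ± 6.12 and 32.2 ± 5.28. The log2 fold changes were 0.11 ± 0.17 and -0.16 ± 0.21 (SE). *Atg9a* shared 30.5% of its words with other genes, most often with an overlapping gene model, and its values are uncertain for that reason.

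The conjugation machinery, to which *Atg5* belongs, had 5 of 10 genes above 0 and 5 below, and the log2 fold changes of its partners *Atg12* and *Atg16l1* had opposite signs, neither past the test. *Atg12*, the ubiquitin-like partner of ATG5, had 45.4, 52.9, 56.7, 59.7 and 39.1 normalized reads in young mice and 52.1 to 76.4 in old mice, with a median of 62.7. Its log2 fold change was 0.30 ± 0.18 (SE; limma, unadjusted p = 0.122; exact permutation p = 0.0606), and 4 of 7 old mice exceeded every young mouse. *Atg16l1*, which anchors the ATG12-ATG5 conjugate to the membrane, had 54.7, 50.5, 52.0, 57.7 and 50.2 in young mice. Old values ranged from 28.3 (old 7) through 39.5 to 57.6 (old 6), and 5 of 7 were below every young mouse. Its log2 fold change was -0.34 ± 0.21 (SE; limma, unadjusted p = 0.113; exact permutation p = 0.0808). *Atg7*, the E1-like enzyme that activates both ubiquitin-like systems, had means of 58.3 ± 8.78 and 67.3 ± 15.9 (log2 fold change 0.18 ± 0.20, SE). *Atg4c*, a protease that processes ATG8 proteins, had 47.9, 49.0, 36.5, 45.3 and 49.6 in young mice. In old mice it ranged from 43.7 through 60.0 to 71.3, with 5 of 7 above all young mice (0.31 ± 0.18, SE; limma, unadjusted p = 0.113; exact permutation p = 0.0455). Old 2, old 3 and old 4, which carry letter B, had 60.0, 43.7 and 44.5, and the last 2 lay within the young range.

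Of the ATG8 proteins, which coat the membrane and bind cargo receptors, 3 of 4 tested genes were above 0, with values from -0.01 to 0.10. *Map1lc3b* had 165, 143, 258, 258 and 230.3 normalized reads in young mice and 93.9 (old 5) to 349.9 (old 3) in old mice, with a median of 249. *Gabarap* had 159.9, 142, 140.5, 202 and 199 in young mice and 131 to 258 in old mice, with a median of 169.5. *Gabarapl1* had 141, 107, 129, 151 and 132 in young mice and 63.9 (old 5) to 165 in old mice, with a median of 145. The ages overlapped in all 3, and old 5 had the lowest value of all 12 mice in each. Their log2 fold changes were 0.09 ± 0.28, 0.10 ± 0.20 and -0.01 ± 0.22 (SE). *Gabarapl1* overlaps *1700101I11Rik* on the opposite strand and shared 23.1% of its words with other genes. Its level per kilobase above is uncertain for that reason as well. *Gabarapl2* was low, 5.60 to 31.4 in young and 3.78 to 35.5 in old mice, and shared 12.2% of its words with other genes. *Map1lc3a*, the gene of LC3A, had 8.40, 12.02, 12.6, 14.3 and 10.9 in young mice and 2.26 to 12.7 in old mice with a median of 7.10, of which 4 of 7 were below every young mouse. With the minimum mean lowered to 1, its log2 fold change was -0.58 (limma, unadjusted p = 0.247).

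Cargo receptors link ubiquitinated load to ATG8 proteins, and 1 of 4 tested was above 0. *Sqstm1* had 162, 81.2, 119, 173 and 122 in young mice and 80.5 (old 5) through 133 to 245 (old 3) in old mice. Its log2 fold change was 0.10 ± 0.25 (SE). *Sqstm1* overlaps *Mrnip* on the opposite strand, with 15.5% of words shared.

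For the lysosome membrane, *Lamp1* and *Lamp2* encode its main glycoproteins, of which LAMP2 is also needed for fusion and for chaperone-mediated autophagy. *Lamp2* had 345, 283, 309, 366 and 353 in young mice. In old mice it ranged from 175 (old 5) through 458 to 512 (old 3). Of the old mice, 5 of 7 lay between 443 and 512, above all young mice, while old 5 and old 7 (269) lay below all of them. The log2 fold change was 0.20 ± 0.26 (SE; limma, unadjusted p = 0.442), and 0.52 ± 0.15 (SE; limma, unadjusted p = 0.00212, adjusted p = 0.230) without old 5 and old 7. *Lamp1* had 171, 132, 184, 192 and 206 in young mice and 112 (old 5) through 185 to 230.1 (old 1) in old mice, with a log2 fold change of -0.04 ± 0.19 (SE).

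**Figure D3:**
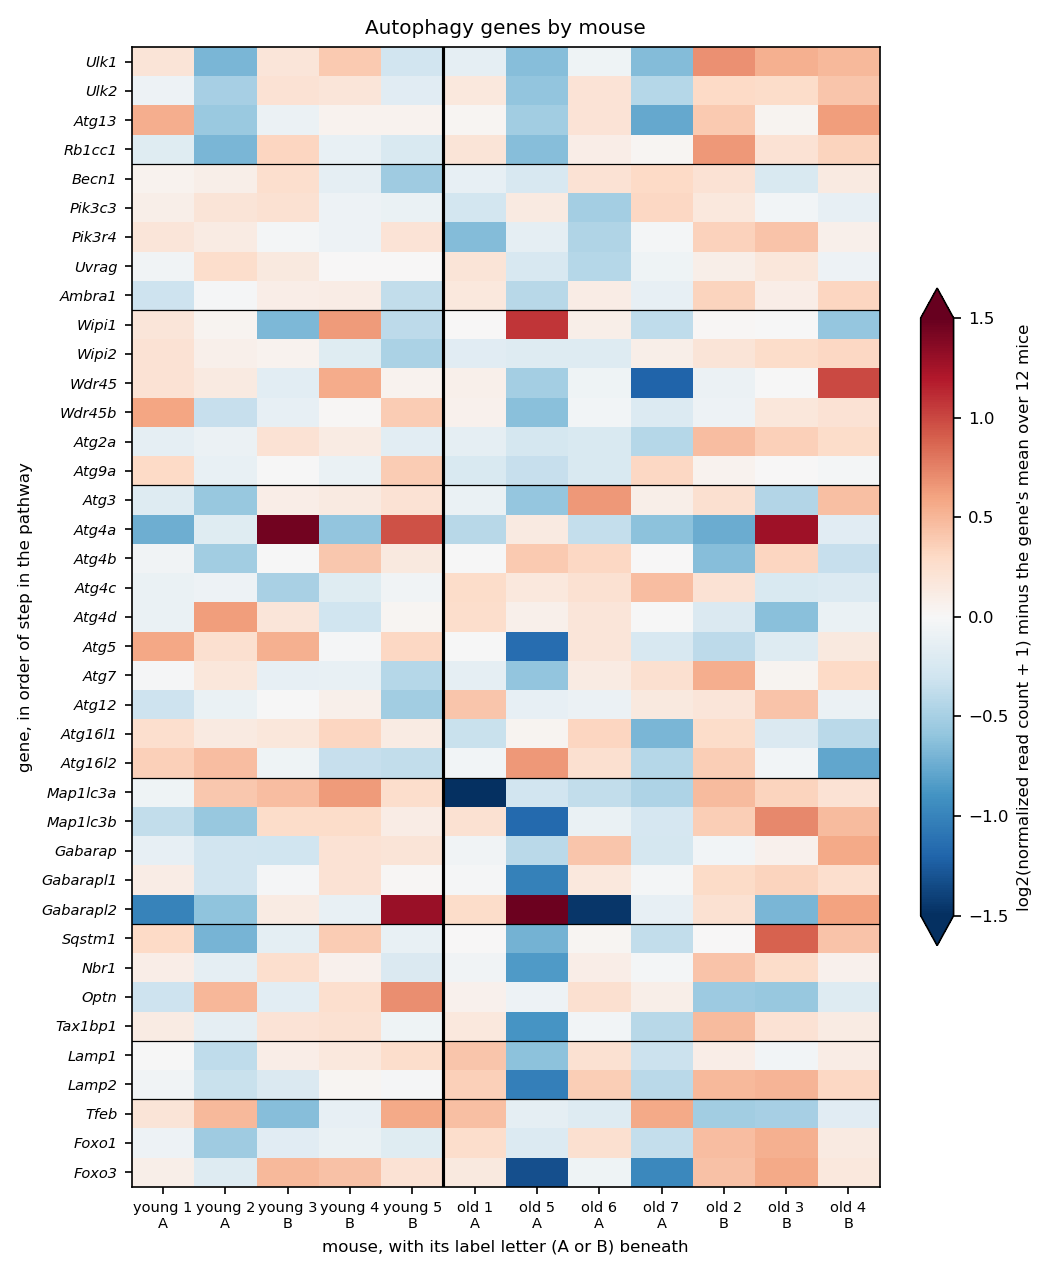
Log2(normalized read count + 1) minus the mean of the gene over 12 mice (colour; values past the ends of the bar take the end colour) for the 39 autophagy genes with a row (y axis, lines between steps) in each mouse (x axis, young left of the thick line, label letter beneath). Old 5 is the lowest mouse for 16 of the 39 genes, and old 2, old 3 and old 4 are the highest for 7, 8 and 5.

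Individual mice differed across the whole list. Old 5 had the lowest value of the 12 mice in 16 of 39 autophagy genes (41.0%), compared with 21.2% of all genes tested. The median deviation of the autophagy genes from their means was -0.35 on the log2 scale in old 5 and -0.21 in old 7, while that of all genes was 0.09 in each. In old 2, old 3 and old 4 it was 0.23, 0.16 and 0.14, and that of all genes -0.01, 0.01 and -0.10. The autophagy genes together took between 0.305% (old 5) and 0.483% (old 2) of the reads. Old 5 and old 7 were also the shallowest libraries and lowest in summed stem cell markers, and their markers of other cell types are given above. The part of any of these in the low values was not tested. Leaving out these 2 mice was chosen after seeing the data, and since they are the old mice with the lowest medians over the list, it moves the age difference of the list upward by construction. Without them, 0 of 38 genes were called and 4 of 38 had an unadjusted p under 0.05, all higher in old mice (*Ulk2*, *Lamp2*, *Rb1cc1* and *Foxo1*), compared with 3.89% of all genes higher. The median log2 fold change was then 0.13.

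The letters separated the libraries more than age did. With age as a covariate, 10.5% of all genes were called higher and 25.6% lower in mice with letter B than with letter A (limma). Of the autophagy genes, 4 of 38 were called higher and 0 lower, and 30 of 38 had a log2 fold change above 0, with a median of 0.24, while 45.5% of all genes were above 0 and their median was -0.09. When values were rescaled by median ratios, 10 of 38 were called, all higher, where 18.4% of all genes were called higher and 23.4% lower, and the share of higher among all called genes moved from 29.2% to 44.0%. *Map1lc3b* was 278 ± 41.5 (SD, n = 6) in B and 171 ± 52.2 (SD, n = 6) in A, a log2 difference of 0.78 ± 0.20 (SE, limma, adjusted p = 0.00432). *Foxo3* was 426 ± 46.7 in B and 265 ± 95.4 in A (0.73 ± 0.22, adjusted p = 0.0132), and was the 1 gene of the list in which the letters did not overlap, compared with 3.16% of all genes that were higher in every mouse of B. *Ulk1* was 212 ± 46.2 in B and 135 ± 36.2 in A (0.69 ± 0.20, adjusted p = 0.00884). *Atg2a*, which encodes a lipid transfer protein, was 163 ± 23.6 in B and 120.1 ± 9.91 in A (0.44 ± 0.17, adjusted p = 0.0377). Without old 5 and old 7, *Ulk1* and *Map1lc3b* were the 2 genes called, both higher in B, compared with 5.63% of all genes.

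With the letter as a covariate, age again gave 0 of 38 calls (0.299% of all genes were called). *Atg5* and *Foxo1* were the 2 genes with an unadjusted p under 0.05, 1 lower and 1 higher, where 2.66% of all genes were lower and 2.55% higher. Within letter A, 15 of 38 genes were above 0 and 0 had an unadjusted p under 0.05. Within letter B, 25 of 38 were above 0, 0 were called (0.809% of all genes) and 6 had an unadjusted p under 0.05, all higher in old mice (4.40% of all genes). These were *Lamp2* (0.50, p = 0.00379), *Foxo1* (0.53, p = 0.00840), *Ulk1* (0.48, p = 0.0123), *Wipi2* (0.46, p = 0.0227), *Rb1cc1* (0.40, p = 0.0308) and *Atg7* (0.52, p = 0.0316), from limma with 3 mice of each age. In letter A, the same genes had log2 fold changes of 0.02, 0.29, -0.13, -0.26, 0.36 and -0.16. Whether age differences differed between the letters was tested with an interaction term. It called 0 of 38 autophagy genes (0.0162% of all genes), and 2 of 38, *Wipi2* (p = 0.0452) and *Atg4b* (p = 0.0488), had an unadjusted p under 0.05, compared with 3.43% of all genes.

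**Figure D4:**
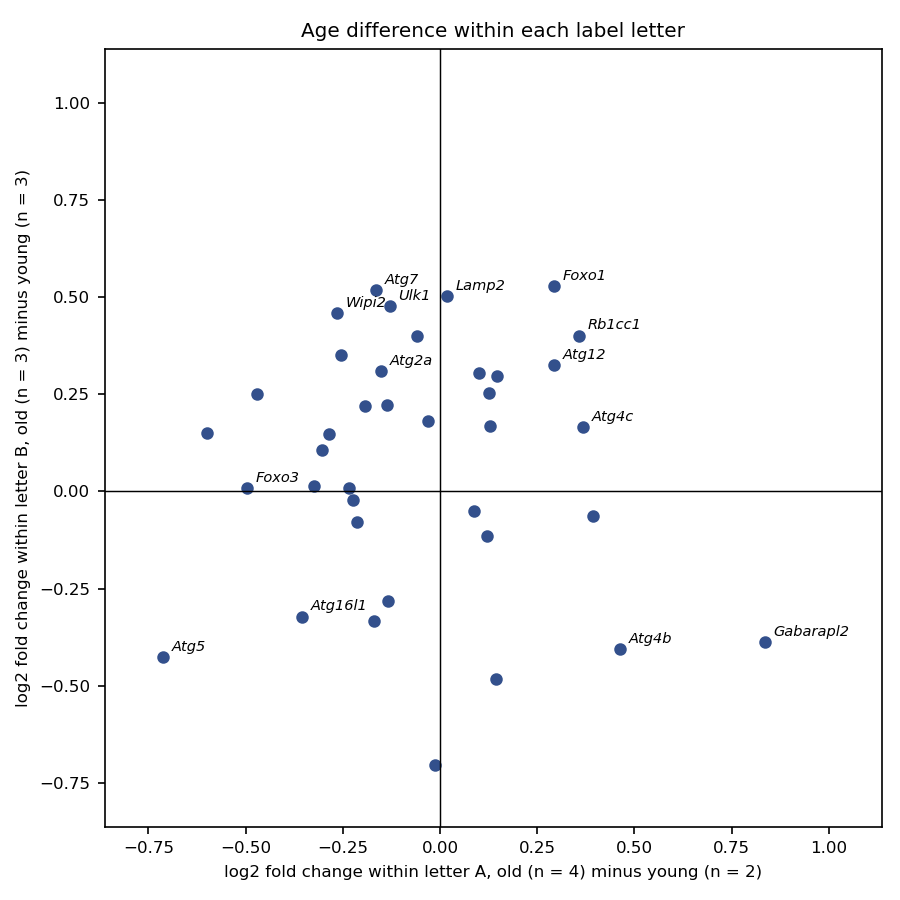
Log2 fold change of the 38 autophagy genes tested, old minus young, within letter A (x axis, 4 old and 2 young mice) and within letter B (y axis, 3 old and 3 young mice); each point is a gene, and 14 are named. *Atg5* lies below 0 in both letters (-0.71 and -0.43), *Foxo1* above 0 in both (0.29 and 0.53), and *Wipi2*, *Ulk1* and *Atg7* below 0 in A and above 0 in B.

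Genes that act on the pathway from outside the list were examined in 6 further lists of 94 genes, of which 72 were tested. None was called, 33 were above and 39 below 0, and 2 of 72 had an unadjusted p under 0.05, 1 higher and 1 lower. Of all genes tested, 1.96% were higher and 1.99% lower at that level. Of mTORC1, TSC and AMPK genes, the nutrient sensors upstream of ULK1, 4 of 14 were above and 10 below 0. *Stk11*, the gene of the AMPK-activating kinase LKB1, which is required for HSC survival, had 71.9, 135, 84.6, 113 and 87.3 in young mice and 45.5 to 112 in old mice, with a log2 fold change of -0.52 ± 0.23 (SE; limma, unadjusted p = 0.0352; exact permutation p = 0.0568). *Flcn*, the gene of folliculin, which acts in amino acid signalling to mTORC1, did not pass 0.05 in limma but was the 1 of 72 genes whose ages did not overlap (0.461% of all genes), and it is named here after its values were seen. It had 65.0, 59.1, 61.0, 64.2 and 64.3 in young mice and 49.3 to 54.5 in old mice, with a median of 52.4. Its log2 fold change was -0.27 ± 0.15 (SE; limma, unadjusted p = 0.0944, adjusted p = 0.9997; exact permutation p = 0.00126, the smallest the splits allow). *Flcn* and *Epm2a* were the 2 of 72 genes with an exact permutation p under 0.05, 1 lower and 1 higher, where 2.42% of all genes were lower and 2.18% higher. None of the 12 genes of autophagosome fusion, 13 of the vacuolar ATPase that acidifies lysosomes and 8 of mitophagy had an unadjusted p under 0.05. Of 10 inhibitors and other regulators, *Epm2a*, the gene of the glycogen phosphatase laforin, had 19.3, 17.8, 22.2, 28.3 and 12.9 in young mice and 24.4 to 34.7 in old mice. Its log2 fold change was 0.60 ± 0.24 (SE; limma, unadjusted p = 0.0239; exact permutation p = 0.00379), and the ages overlapped through young 4. With the letter as a covariate, *Vmp1*, which encodes a membrane protein needed for autophagosome formation (0.66 ± 0.24, SE; limma, unadjusted p = 0.00956, adjusted p = 0.549), and *Cd63*, a lysosomal tetraspanin among 15 lysosomal genes (0.47 ± 0.21, SE; limma, unadjusted p = 0.0340, adjusted p = 0.863), also had an unadjusted p under 0.05. Between the letters, 7 of the 72 genes were called higher in B and 1, *Prkaa2*, lower, compared with 10.5% of all genes higher and 25.6% lower.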

How the data were processed

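Normalized read counts (the signal the authors deposited, 1 column per mouse) are reads per gene divided by library size times a scaling factor. Per the labels' processing notes, FastQC 0.11.8, STAR 2.5.4b, edgeR 3.24.3 and mm10 were used. The counting tool, its annotation and whether strand was used are not given in the sources used here. The authors' own comparison (log2 fold changes, log2 CPM, likelihood ratios, p-values and FDR) was not used. All columns were mapped to mice by label. Whole reads were recovered for 100% of values (tolerance 0.1 read), between 0.861 and 5.12 M per mouse, and 3 reads equal 0.583 to 3.69 normalized reads.

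Ages were compared with limma 3.58.1 (R 4.3.3; lmFit, eBayes with trend) on log2(value + 1), which understates changes of low genes, at a minimum mean of 10, with Benjamini-Hochberg adjustment over all genes. For single genes, a two-sided exact permutation test used all splits into 5 and 7 mice. Count tests used edgeR 4.0.16 and DESeq2 1.42.0 on recovered reads. The procedure was tested on simulated data with known age differences and no difference between the letters, so that test does not cover the letter difference of these mice. P-values set the difference between groups against the spread between mice. In limma that spread is moderated over all genes. In age fits without the letter it also holds the difference between the letters. Alternatives were other pseudocounts, minimum means, no trend, letter covariate or single letters, replicate block, the count tests, median ratios and each mouse left out once. GENCODE vM21 (GRCm38) gave positions, exon lengths and the 50-base words that genes share. The E-box search was added to the planned CLEAR and FoxO motifs.

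The genes and lists were chosen with earlier results of these data known. Genes named with values were those with an unadjusted p under 0.05 in the age comparison with or without the letter, the 5 highest per kilobase, the 3 highest and 3 lowest log2 fold changes, and a fixed set of 21. In the further lists, genes called or with an unadjusted p under 0.05 were named. Other genes are given by counts, or named where a small count, a call between letters or a mouse that stood apart concerned them.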

Additional observations from a re-analysis of the deposited data

Results flagged for a closer look

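Values of the 39 genes in young (n = 5) and old (n = 7) mice gave 78 groups, in which 5 had a highest or lowest mouse that stood apart from the others by Dixon's 95% criterion, where chance gives about 1 in 20. *Wipi1* had 52.1 normalized reads in old 5, while the other old mice had 15.9 to 26.0. *Wdr45* had 37.5 in old 4, compared with 7.38 to 19.4 in the other old mice. *Atg4a*, which shared 51.2% of its 50-base words with other genes, most often with a pseudogene, had 25.5 in old 3 and 5.57 to 11.0 in the others. *Gabarapl1* had 63.9 in old 5 and 128 to 165 in the others. *Foxo1* had 72.6 in young 2, while the other young mice had 93.4 to 100.2, and without young 2 its log2 fold change was 0.29 (limma, unadjusted p = 0.159). No gene of the list had an age difference that differed between the letters at an adjusted p under 0.05.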

How the results depend on the processing

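No autophagy gene was called between the ages under any of the 28 alternatives. The median log2 fold change was -0.06 to 0.06 as mice were left out one at a time. It was -0.13 in letter A alone, 0.16 in letter B alone and 0.13 without old 5 and old 7. The SD of the mouse medians was 0.16, which describes the spread of single mice and is not the error of a difference between groups. The number of genes with an unadjusted p under 0.05, 1 as reported, was 2 with edgeR (quasi-likelihood, with and without the letter, and likelihood-ratio), DESeq2, the letter as a covariate and replicates 1 to 5 with no replicate block, 0 in letter A alone, 6 in letter B alone, 4 without old 5 and old 7, and 0 to 3 when each mouse was left out (0 without young 1 or young 3, 3 without old 5, 2 without old 7). With the replicate block it was 1, and 19 genes of all were called, compared with 8 for the same mice without it. The numbers pair different animals (correlation of deviations -0.56 to 0.61 over 5 pairs, 2 of 5 young mice closest to their own number). The letter comparison, with 4 autophagy genes called, gave 10 with median ratios, 2 without old 5 and old 7, and 3 to 8 when each mouse was left out (8 without young 1, 7 without young 5 or old 1). Calls over all genes moved too, from 4462 to 5155 with median ratios, 2288 without old 5 and old 7, 5003 without young 1, 4916 without young 5 and 4953 without old 1. The cause of these changes was not tested.

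Log2 fold changes near 0 changed sign. *Gabarapl1* (-0.01) was 0.041 with edgeR quasi-likelihood, 0.042 with DESeq2, 0.042 with edgeR likelihood-ratio, 0.053 with the letter as a covariate, 0.079 with edgeR and the letter, 0.22 in letter B and 0.20 without old 5 and old 7. *Lamp1* (-0.04) was 0.019 with edgeR and the letter, 0.12 in letter A and 0.14 without old 5 and old 7. *Foxo3* (-0.35) was 0.0087 in letter B and 0.042 without old 5 and old 7, and *Gabarapl2* (0.10) was -0.39 and -0.15 there. In letter A, *Sqstm1* was -0.058, *Ulk1* -0.13, *Becn1* -0.031, *Wipi2* -0.26 and *Atg7* -0.16. When each mouse was left out, the ranges were -0.083 to 0.16 for *Gabarapl1*, -0.14 to 0.058 for *Lamp1*, -0.064 to 0.22 for *Sqstm1*, -0.089 to 0.19 for *Ulk1*, -0.024 to 0.17 for *Becn1*, -0.037 to 0.29 for *Map1lc3b* and -0.14 to 0.44 for *Gabarapl2*. *Atg5* was below 0 and *Foxo1* above 0 in every alternative, from -0.71 to -0.38 and from 0.29 to 0.54. Old 7 and old 5 had the fewest reads, so that counting error is largest there.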
